A study of Mus musculus with 58 samples.

Results

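The cadherin and protocadherin genes comprised 30 of the 9636 genes in the count table. They were taken by name, as every symbol that opens with Cdh and a digit or with Pcdh, and the endothelial marker Cdh5 was left out. The set held 15 genes counted here as classical cadherins (Cdh2, Cdh4, Cdh6, Cdh7, Cdh8, Cdh9, Cdh10, Cdh11, Cdh12, Cdh13, Cdh18, Cdh19, Cdh20, Cdh22 and Cdh24, with the tail-less T-cadherin gene Cdh13 grouped with them) and 9 non-clustered protocadherins (Pcdh1, Pcdh7, Pcdh8, Pcdh9, Pcdh10, Pcdh11x, Pcdh15, Pcdh17 and Pcdh19). The other 6 were clustered protocadherins of chromosome 18 (Pcdhb17, Pcdhb20, Pcdhb22, Pcdhga12, Pcdhgc3 and Pcdhgc5). No member was lost to a filter on low values in the tests, and the smallest count of any member in any library was 201.

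Cadherins are calcium-dependent adhesion proteins that join the membranes of neighbouring cells, and inside the cell the classical ones other than T-cadherin bind catenins and through them actin. In cortex they hold synapses together, and different type II cadherins mark different sets of neurons and their connections. Clustered protocadherins give each neuron a surface identity by which its own branches recognise and avoid each other, whereas non-clustered protocadherins act in adhesion, axon growth and synapse turnover, several of them through the WAVE complex. Pcdh8, also called arcadlin, is induced by neuronal activity, and in rat hippocampal neurons its protein drives N-cadherin, the product of Cdh2, off the synaptic membrane through the kinase TAO2 and p38 MAPK.

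The RNA came from somatosensory cortex of C57BL/6J mice that were 2 to 4 months old at the start, taken about 1 month after the last procedure and sequenced in bulk after poly(A) selection. Closed head injury was given once a day, 5 times in all (5xCHI), or mimicked in sham mice, and 30 min after each session came an intraperitoneal injection of saline vehicle or of 20 mg/kg SB239063 (SB), which inhibits p38 MAPK. The design names about 18 and 34 days without tying a day to an animal. Among females there were 11 5xCHI SB, 12 5xCHI vehicle, 3 sham SB and 9 sham vehicle libraries, and among males 8 5xCHI SB, 8 5xCHI vehicle, 2 sham SB and 5 sham vehicle libraries. Each sex came in 4 cohorts, labelled F1 to F4 and M1 to M4, and sham SB mice were present in 2 cohorts of each sex. All mice were of the same strain, and sham mice also had the injections.

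The libraries held 28316280 to 49158277 counts each. Markers of cortical excitatory neurons (6 of 6 measured), upper layers (7 of 7) and deep layers (9 of 10) were present, with summed levels of 3233 to 6283, 1012 to 2732 and 478 to 776 CPM (counts scaled to library size, with TMM factors) over the 14 sham vehicle libraries. Striatal markers (3 of 6 measured) summed to 97.8 to 315 CPM in the same libraries, and no listed gene had a count of 0. Of the libraries, 4 were outlying in a principal component analysis: 3 sham vehicle libraries (female replicates 1 and 7, male replicate 2) and 1 female 5xCHI SB library (replicate 8). These far libraries count in every value below unless their removal is stated, a check chosen after seeing the data.

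Regulatory sequence is shown for Pcdh8 and Pcdh19, the members with the smallest p for injury in females with all libraries, from 250 bases before to 50 bases after the RefSeq start of each gene (GRCm38.p6, both on the minus strand, chr14:79771263-79771562 and chrX:133688944-133689243). Capitals mark the motif matches found on either strand, and 17 of the 30 members had such a window.
Pcdh8: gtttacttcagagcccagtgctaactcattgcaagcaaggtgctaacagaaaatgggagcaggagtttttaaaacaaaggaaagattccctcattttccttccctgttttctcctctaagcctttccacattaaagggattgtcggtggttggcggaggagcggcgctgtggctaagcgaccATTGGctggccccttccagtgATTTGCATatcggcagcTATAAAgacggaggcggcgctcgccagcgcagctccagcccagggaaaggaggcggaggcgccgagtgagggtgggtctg
Pcdh19: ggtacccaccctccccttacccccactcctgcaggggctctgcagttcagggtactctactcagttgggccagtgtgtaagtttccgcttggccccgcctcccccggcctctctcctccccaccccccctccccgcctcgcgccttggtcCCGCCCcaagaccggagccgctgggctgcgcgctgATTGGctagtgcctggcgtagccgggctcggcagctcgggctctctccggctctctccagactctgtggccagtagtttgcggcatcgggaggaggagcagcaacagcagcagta
In the Pcdh8 window the capitals are, in order, ATTGG (first base at -68; read on the other strand this is the CCAAT box), the octamer ATTTGCAT (-47) and, at -30, the core promoter element TATAAA. In the Pcdh19 window they are CCGCCC (first base at -100; on the other strand this is the GC box GGGCGG) and ATTGG (-65). Of 32851 promoter windows of this length, 13.6% hold TATAAA, 37.4% CCAAT, 1.7% ATTTGCAT and 35.7% GGGCGG. The letters of the cAMP response element TGACGTCA (1.8% of windows), of its shorter form TGACG (20.8%, which TGACGTCA contains), of the AP-1 site TGANTCA (7.8%) and of the EGR site GCGGGGGCG (2.9%) are not in either window. GC content was 54.3% for Pcdh8 and 67.7% for Pcdh19.

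Per kilobase of exon, the family's transcripts spanned a wide range in the cortex of sham vehicle mice (n = 14), led by non-clustered protocadherins. Pcdh9 stood at 26.7 ± 6.39 CPM per kb (SD) and the delta protocadherin Pcdh1 at 26.5 ± 6.30. Pcdh7 followed at 19.9 ± 6.03, Pcdh10, which in mouse takes part in activity-dependent synapse elimination, at 12.7 ± 2.61, and Cdh2 at 12.3 ± 2.06 CPM per kb. The SDs of Pcdh9, Pcdh1 and Pcdh7 overlap one another, as do those of Pcdh10 and Cdh2. At the low end, Cdh4 (R-cadherin) stood at 2.25 ± 0.61 CPM per kb, Pcdh15, known for the tip links of sensory hair cells, at 1.79 ± 0.50, and the X-linked Pcdh11x at 1.60 ± 0.36, with overlapping SDs. Pcdh8 was in the middle, the fourteenth of the 30, at 5.64 ± 1.71 CPM per kb. The median over the members was 5.07 CPM per kb, against 10.0 over all genes. Their median coefficient of variation between sham vehicle libraries was 23.0%, against 14.4% over all genes. Members also had longer exonic sequence (median 7442 bases, against 5032.5 for the 9550 genes with a length). Length here is the union of all annotated exons of a gene, so the ranks per kb depend on it. Pcdh15, for example, had 23773 bases and a mean of 42.4 CPM in sham vehicle mice. The gamma genes of the cluster share constant exons and the beta genes are close copies, so the values of the 6 clustered genes depend on how the authors' counting split such reads and are uncertain.

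**Figure D1:**
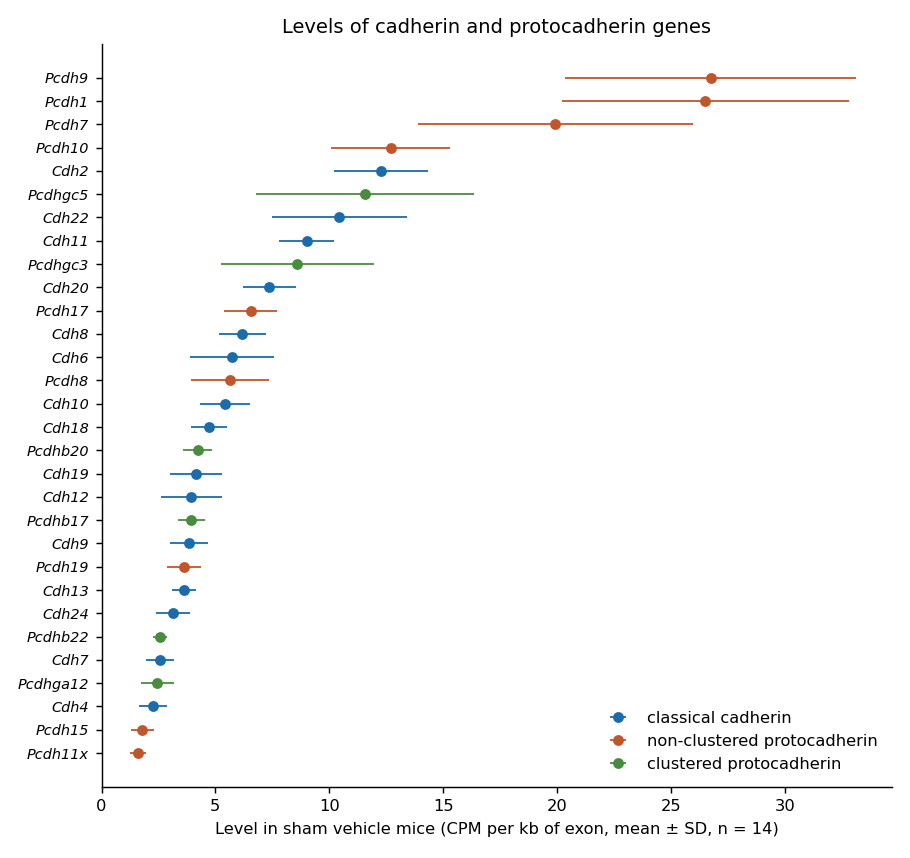
Level of each member in sham vehicle mice, as CPM per kilobase of exon (mean and SD bars, n = 14), coloured by class. Pcdh9 and Pcdh1 lead at 26.7 and 26.5, and Pcdh11x is lowest at 1.60.

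The lasting effect of repeated injury was read from 5xCHI vehicle against sham vehicle mice. No cadherin or protocadherin gene passed an adjusted p of 0.05 in either sex or over both (edgeR quasi-likelihood test, Benjamini-Hochberg over 9636 genes), and DESeq2 gave 0 as well. Over all genes 0% passed in each of these 3 comparisons. The member with the smallest p was Pcdh8 in females, which was higher in 5xCHI vehicle mice of all 4 cohorts. Without the far libraries Pcdh7 had a slightly smaller p than Pcdh8 in females, with lower levels in 5xCHI vehicle mice. In males the fold change of Pcdh8 was below 0.

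Pcdh8 in females had 17.2, 31.2 and 50.7 CPM (lowest, median and highest of 12) in 5xCHI vehicle libraries, against 15.5, 21.6 and 29.8 CPM (of 9) in sham vehicle libraries. The pooled groups overlap, but within each of the 4 female cohorts every 5xCHI vehicle library lay above every sham vehicle library. The lowest 5xCHI vehicle library had 28.0 CPM in cohort F1, 17.2 in F2, 25.2 in F3 and 29.82 in F4. The highest sham vehicle library of the same cohorts had 24.2 CPM in F1, 15.5 in F2, 22.1 in F3 and 29.77 in F4. The margin was thus small in F4, and the single sham vehicle library of F2 is one of the 4 that stood far from the rest. Pcdh8 was the only gene of the table with this pattern, which 0.0104% of genes showed. This count was made after the Pcdh8 values were seen.

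The fitted log2 fold change of Pcdh8 in females was 0.57 ± 0.13 (SE; 95% interval 0.31 to 0.82; unadjusted p = 4.7e-05, adjusted p = 0.453 by edgeR). Here 4 members had an unadjusted p under 0.05, all of them higher in 5xCHI vehicle mice, against 3.14% of all genes in either direction and 1.78% higher. Without the far libraries 7 members had one, 2 higher and 5 lower, against 15.6% of all genes. The lower ones were Pcdh7 at -0.32 (p = 0.000357, adjusted p = 0.176 by edgeR), Cdh7 at -0.27, Cdh18 at -0.20, Cdh10 at -0.20 and Pcdh9 at -0.17. With all libraries these 5 were at -0.14, -0.09, -0.11, -0.05 and -0.03 in the same order, and none had an unadjusted p under 0.05. Pcdh7 had 116, 189 and 286 CPM in 5xCHI vehicle females, against 109, 218 and 327 CPM in sham vehicle females, with overlapping groups. As a single value, the mean within-cohort difference of Pcdh8 was 0.50 on the log2 scale, with an exact permutation p of 0.00251 (two-sided, 22680 arrangements within cohorts). Earlier results of these data already had Pcdh8 as a leading gene of this comparison. That p is not adjusted for the choice and is no independent support. The cohort differences of Pcdh8 were 0.66 in F1, 0.55 in F2, 0.66 in F3 and 0.13 in F4. Adjusted p ran from 0.0543 with DESeq2 to 1 with the replicate block over the other settings, and the fold change from 0.46 to 0.63. Female 5xCHI SB libraries were at 24.7, 30.6 and 46.5 CPM (lowest, median and highest of 11), and the 3 female sham SB libraries at 24.2, 28.8 and 31.4 CPM.

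Pcdh8 in males had 15.4, 27.5 and 32.3 CPM (lowest, median and highest of 8) in 5xCHI vehicle libraries, against 17.6, 29.0, 33.0, 33.3 and 44.0 CPM in the 5 sham vehicle libraries. The groups overlap almost wholly, and the fold change was -0.19 ± 0.16 (p = 0.25, adjusted p = 0.846 by edgeR). It was -0.07 without male sham vehicle replicate 2, the far library at 44.0 CPM, -0.05 without 5xCHI vehicle replicate 7 and -0.37 (p = 0.0302) without sham vehicle replicate 1. The injury effect in males minus that in females was -0.76 ± 0.21 (unadjusted p = 0.000597, adjusted p = 0.786 by edgeR), so this difference between the sexes did not pass over all genes. For this difference 15 of 30 members were above 0 (51.8% of all genes). Of all 30, 4 had an unadjusted p under 0.05, against 6.13% of all genes, and 0% passed after adjustment. That count of 4 was 2 without male sham vehicle replicate 2 and 8 without female sham vehicle replicate 1 or 7. Cdh18 was at 0.36 ± 0.15 and Pcdhb22 at 0.23 ± 0.097 in the same difference, and Cdh2 at 0.05 ± 0.11. Without the 4 far libraries 7 members had an unadjusted p under 0.05 (14.5% of all genes). Of these, Cdh18 was at 0.44 (p = 0.000843, adjusted p = 0.268), Pcdh7 at 0.46 (p = 0.00143), Pcdh9 at 0.36 (p = 0.00422) and Cdh10 at 0.38 (p = 0.00699), ahead of Pcdh8 at -0.60 (p = 0.00957, adjusted p = 0.296).

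**Figure D2:**
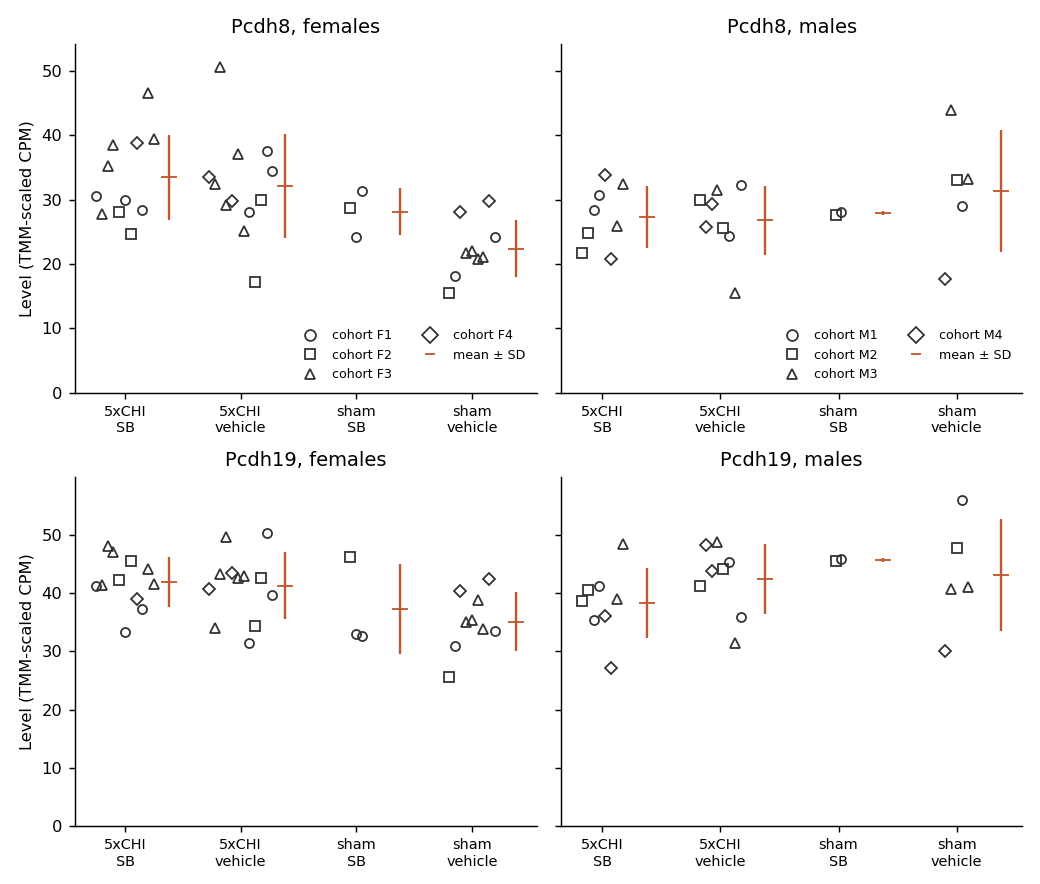
Pcdh8 and Pcdh19 in each library (TMM-scaled CPM) by sex and group, with symbols for the cohort and bars for mean and SD. In females Pcdh8 is at a median of 31.2 CPM in 5xCHI vehicle and 21.6 CPM in sham vehicle libraries, and in males at 27.5 CPM in 5xCHI vehicle and 33.0 CPM in sham vehicle libraries.

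Pcdh19, an X-linked protocadherin whose human gene is mutated in an epilepsy of females, was next in females. Its levels were 31.5, 42.6 and 50.4 CPM (n = 12) in 5xCHI vehicle libraries, against 25.6, 35.0 and 42.4 CPM (n = 9) in sham vehicle libraries. The groups overlap, the cohort means differed in the same direction in 4 of 4 female cohorts (0.03 in F4 to 0.58 in F2), and the fold change was 0.25 ± 0.091 (p = 0.00782, adjusted p = 1.00 by edgeR). Pcdh8 and Pcdh19 were the only members with 4 of 4 female cohort means higher, a pattern of 3.22% of all genes. Without the far libraries Pcdh19 was at 0.19 (p = 0.0611).

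Cdh13 and Cdh4 were the other female members with an unadjusted p under 0.05. Cdh13 encodes T-cadherin, which lacks the catenin-binding tail and is held by a lipid anchor. It had 39.8, 45.9 and 51.4 CPM (n = 12) in 5xCHI vehicle females, against 29.5, 40.9 and 50.2 CPM (n = 9) in sham vehicle females. The fold change of Cdh13 was 0.22 ± 0.096 (p = 0.0233 by edgeR). Cdh4 had 12.8, 18.6 and 26.5 CPM in 5xCHI vehicle females, against 8.86, 15.4 and 27.8 CPM in sham vehicle females, at 0.22 ± 0.10 (p = 0.0372). The 8.86 CPM belong to a far library, and without those libraries Cdh4 was at 0.14 (p = 0.186) and Cdh13 at 0.22 (p = 0.0152). Both groups overlap for both genes. Cdh2 was at 81.0, 99.9 and 120 CPM in 5xCHI vehicle females and at 66.3, 99.5 and 123 CPM in sham vehicle females, nearly the same medians, with a fold change of 0.04 ± 0.068 and a 95% interval of -0.10 to 0.18.

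In males Cdh4 was at 0.12 ± 0.14, Cdh13 at 0.04 ± 0.12 and Pcdh19 at -0.0049 ± 0.12, and for none of the 3 did the effect in males minus that in females have an unadjusted p under 0.05. The smallest p values in males were those of Pcdhb22, Cdh18 and Pcdh9. Pcdhb22 had 15.5, 19.2 and 23.3 CPM (n = 8) in 5xCHI vehicle males, against 14.7, 16.2, 16.3, 18.2 and 21.2 CPM in the 5 sham vehicle males. Its fold change was 0.18 ± 0.077 (p = 0.0239, adjusted p = 0.846 by edgeR). Cdh18, a type II cadherin of neurons, had 19.9, 26.3 and 28.2 CPM in 5xCHI vehicle males, against 19.2, 20.7, 21.7, 22.0 and 22.7 CPM in sham vehicle males (0.25 ± 0.12, p = 0.0381). Pcdh9 had 172, 214 and 239.9 CPM in 5xCHI vehicle males, against 145, 155, 164, 209.5 and 209.6 CPM in sham vehicle males (0.27 ± 0.13, p = 0.0391). For all 3 the pooled groups overlap, yet within each male cohort their 5xCHI vehicle libraries lay above the sham vehicle libraries. Cdh20 shared this at 0.16 ± 0.11 (p = 0.149), so that 4 members had it, against 0.778% of all genes, a count made after their values were seen. The same 4 had it without the far male library, against 1.2% of all genes. By cohort means alone, 7 members were higher in all 4 male cohorts (6.66% of all genes), and 6 without the far male library (6.27%). In 3 of the 4 male cohorts the comparison was with a single sham vehicle library. At an unadjusted p under 0.05, 3 members were higher and 0 lower, against 3.55% of all genes in either direction and 1.42% higher. That count was 0 without male sham vehicle replicate 2 or male 5xCHI vehicle replicate 7. With all 4 far libraries left out it was 1, Cdh18 at 0.24 (p = 0.0155), and Pcdh9 was at 0.19.

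Over both sexes 25 of the 30 members had a positive fold change, against 49.4% of all genes, with a median of 0.06 on the log2 scale against -0.00067 over all genes. By class, 13 of 15 classical cadherins, 9 of 9 non-clustered and 3 of 6 clustered protocadherins were above 0. It did not hold without the far libraries: 10 of 30 were above 0 and the median was -0.01. With limma voom and quality weights 13 of 30 were above 0. Cdh4 alone had an unadjusted p under 0.05 (1 of 30 members, against 1.75% of all genes), at 0.17 ± 0.085 (p = 0.0495). That count was 3 without male 5xCHI vehicle replicate 7 and 0 without any of several other libraries. After it came Pcdh8 at 0.19 ± 0.10, Cdh13 at 0.13 ± 0.078, Pcdh19 at 0.12 ± 0.075 and Pcdh9 at 0.12 ± 0.079. On the negative side stood Pcdhga12 at -0.04 ± 0.078, Cdh24 at -0.07 ± 0.13, Cdh22 at -0.03 ± 0.073, Pcdhb17 at -0.02 ± 0.070 and Pcdhb20 at -0.00075 ± 0.064. Cdh2 was at 0.06 ± 0.056. For all 30 members the 95% interval lay within 1.5-fold in either direction. In females 18 members were above 0 (45% of all genes) and in males 20 (50.2%), and without the far libraries 10 and 15.

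**Figure D3:**
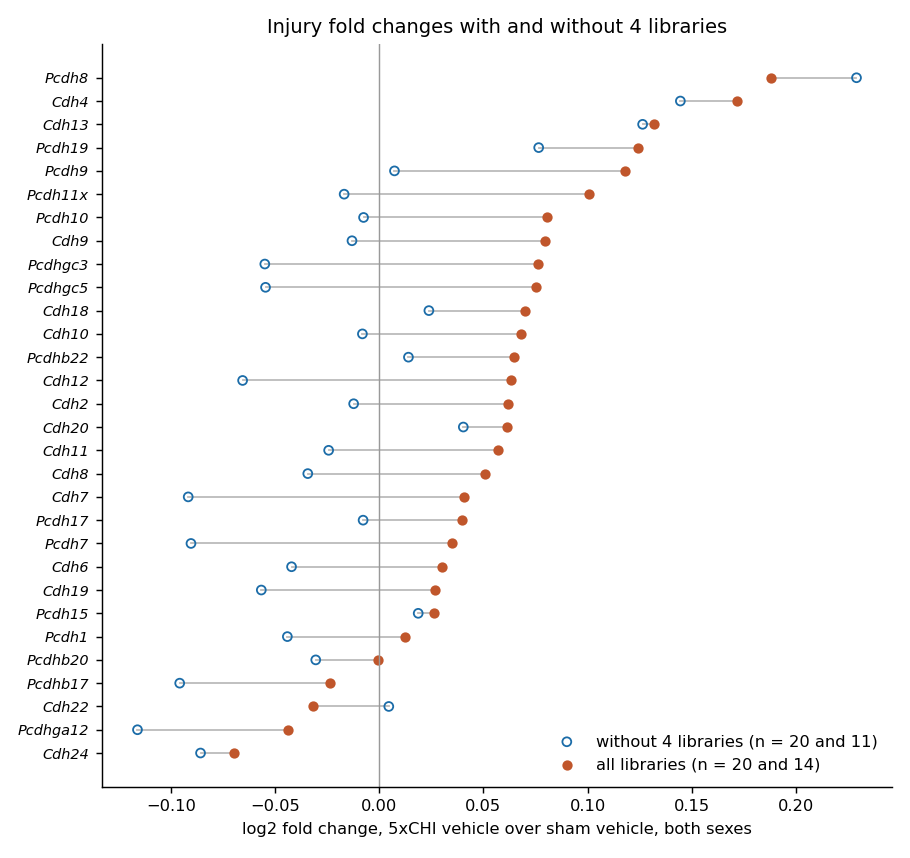
Log2 fold change of each member for 5xCHI vehicle over sham vehicle, both sexes, with all libraries (filled, n = 20 and 14) and without the 4 libraries that stood far from the rest (open, n = 20 and 11). With all libraries 25 of 30 members lie above 0, and without the 4 libraries 10 of 30.

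Values of marker lists are given beside these, and their part in them was not tested. No marker gene passed adjustment in the injury comparisons. Immediate early genes (11 of 14 measured, Pcdh8 not among them) were above 0 for 8 of 11 in injured females, with a median fold change of 0.05, and for 0 of 11 in injured males, with a median of -0.38. Of these, 0 had an unadjusted p under 0.05 in females and 3, all lower, in males. Their summed level was 956 to 2289 CPM in 5xCHI vehicle females and 1148 to 2346 CPM in sham vehicle females. In males it was 908 to 1914 CPM in 5xCHI vehicle and 754 to 2327 CPM in sham vehicle libraries. Myelin genes (10 of 10 measured) were above 0 for 0 of 10 in females, with a median of -0.15, and for 10 of 10 in males, with a median of 0.29, and an unadjusted p under 0.05 was found for 0 in females and 1 in males. They summed to 5294 to 10512 CPM (median 7223) in 5xCHI vehicle females, against 5188 to 20824 CPM (median 7261) in sham vehicle females. The female medians were thus nearly equal. In males the sums were 6145 to 12585 CPM (median 7810) in 5xCHI vehicle and 3234 to 10431 CPM (median 6863) in sham vehicle libraries. Over all genes 45% were above 0 in females and 50.2% in males. Marker list values without the far libraries are not given here. Microglial genes were above 0 for 5 of 6 in females (median 0.12, 3 with an unadjusted p under 0.05, against 3.14% of all genes). They summed to 291 to 385 CPM (median 313) in 5xCHI vehicle females, against 260 to 353 CPM (median 275.5) in sham vehicle females. In males the sums were 288 to 375.5 CPM (median 323) in 5xCHI vehicle and 284 to 339 CPM (median 329) in sham vehicle libraries. The ranges overlap in both sexes. In bulk tissue, fewer cells of a type and less RNA per cell cannot be told apart. The fold change also followed exon length over the 9550 genes with a length (Spearman rho 0.457 over both sexes, 0.465 in males and 0.003 in females, across genes, which are not independent replicates). After a lowess fit on length was taken out, 24 of 30 members were above 0 over both sexes, 18 in females and 16 in males, and Pcdh8 in females stayed at 0.57.

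SB after injury, 5xCHI SB against 5xCHI vehicle, asked what p38 MAPK inhibition altered in the injured cortex. No member passed over both sexes or in either sex, and 0% of all genes did in each of these comparisons (edgeR). The members with the smallest p were Cdh22, Pcdhga12 and Pcdh1, each at higher levels in 5xCHI SB mice. The fold changes of Pcdh8 and Cdh2 lay within 1 SE of 0.

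Cdh22, a type II cadherin of brain, had 29.4, 40.5 and 61.2 CPM (n = 19) in 5xCHI SB libraries, against 26.9, 36.9 and 54.5 CPM (n = 20) in 5xCHI vehicle libraries. The ranges overlap for most of their length, and the fold change was 0.17 ± 0.065 (p = 0.0114, adjusted p = 0.655 by edgeR), with 6 of 8 cohort means higher. Pcdhga12 had 12.4, 18.2 and 25.2 CPM in 5xCHI SB libraries, against 10.2, 15.6 and 21.3 CPM in 5xCHI vehicle libraries (0.18 ± 0.070, p = 0.0129), with 7 of 8 cohort means higher. Pcdh1 had 176, 249 and 373 CPM in 5xCHI SB libraries, against 168, 232 and 293 CPM in 5xCHI vehicle libraries (0.12 ± 0.060, p = 0.0465), with 6 of 8. These were the 3 members with an unadjusted p under 0.05, all higher, against 7.06% of all genes in either direction and 3.41% higher. That count was 10 with limma voom (1407 of all genes), 4 without the far libraries (788), and 0 with complete cohorts (155) or with no cohort term (396). Without the far libraries Cdh22 was at 0.13 (p = 0.0302 by edgeR), Pcdhga12 at 0.17 (p = 0.00875) and Pcdh1 at 0.10 (p = 0.0462). In F4, counted among the 8 cohorts, the only 5xCHI SB library is a far one. Pcdhgc5 was at 0.16 ± 0.096 and Cdh7 at 0.15 ± 0.092, and on the other side Cdh9 was at -0.10 ± 0.086, Pcdh17 at -0.07 ± 0.056, Cdh20 at -0.07 ± 0.062, Pcdh19 at -0.06 ± 0.067 and Cdh11 at -0.06 ± 0.049.

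Pcdh8 was at 20.8, 30.0 and 46.5 CPM in 5xCHI SB libraries, against 15.4, 29.9 and 50.7 CPM in 5xCHI vehicle libraries, with nearly equal medians. The fold change was 0.05 ± 0.092, with a 95% interval of -0.14 to 0.23. Cdh2 was at 73.9, 106 and 118 CPM in 5xCHI SB libraries, against 81.0, 103 and 120 CPM in 5xCHI vehicle libraries, a fold change of 0.00084 ± 0.050 with an interval of -0.10 to 0.10. Over both sexes 17 of 30 members were above 0 (52.2% of all genes), and for 30 of 30 the interval lay within 1.5-fold.

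In females 26 of 30 members were above 0 after SB (52.7% of all genes), including 6 of 6 clustered protocadherins with a median of 0.18, and 5 had an unadjusted p under 0.05, all higher, against 7.21% of all genes in either direction and 3.3% higher. Pcdh1 had 213, 280.5 and 373 CPM (n = 11) in 5xCHI SB females, against 168, 231 and 293 CPM (n = 12) in 5xCHI vehicle females. Its cohort mean was higher in 4 of 4 cohorts and its fold change was 0.24 ± 0.077 (p = 0.00283, adjusted p = 0.693 by edgeR). Pcdhgc3 had 28.3, 68.9 and 79.0 CPM in 5xCHI SB females, against 21.2, 53.6 and 69.3 CPM in 5xCHI vehicle females (0.30 ± 0.14, p = 0.0345), and Cdh22 was at 0.18 ± 0.083 (p = 0.0334). The groups overlap for each of these genes. Without the far libraries Cdh22 was at 0.10 (p = 0.190, adjusted p = 0.681 by edgeR). Pcdh1 was then at 0.21 (p = 0.00324, adjusted p = 0.579) and Pcdhgc3 at 0.30 (p = 0.00265, adjusted p = 0.579). The count of 5 was 7 without the far libraries (804 of all genes) or with limma voom (1280). It was 2 without female 5xCHI SB replicate 2 or 5xCHI vehicle replicate 9, 2 with no cohort term and 0 with complete cohorts (150 of all genes). Pcdh1, Pcdhga12, Pcdhgc3 and Pcdhgc5 were higher in all 4 female cohorts, a pattern of 8.54% of all genes. In F4 the only 5xCHI SB library is replicate 8, one of the 4 far libraries. Without it F4 holds no such comparison, so each statement about all 4 cohorts rests on it. Once the lowess fit on exon length was taken out, 16 of 30 members were above 0 in females. Fold changes over all genes followed length there (Spearman rho 0.441). Pcdh8 was at 0.07 ± 0.12 and Cdh2 at 0.04 ± 0.064.

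In males 16 of 30 members were above 0 (51.9% of all genes) and none had an unadjusted p under 0.05, against 1.88% of all genes. DESeq2 also gave 0, whereas limma voom gave 2 (650 of all genes) and males fitted alone 1 (267). Without the far libraries the count was 1 (319 of all genes), Cdh11 at -0.13 (p = 0.0421 by edgeR). No member had a higher mean in all 4 male cohorts, against 4.2% of all genes. The smallest p values were those of Cdh11 at -0.12 ± 0.076, Cdh22 at 0.16 ± 0.10 and Pcdhga12 at 0.17 ± 0.11. Pcdh8 was at 0.02 ± 0.14 and Cdh2 at -0.04 ± 0.077. The SB effect in males minus that in females was above 0 for 5 of 30 members (48.4% of all genes), and 0 had an unadjusted p under 0.05 with edgeR or DESeq2, against 0.913% of all genes. For Pcdh1 this difference was -0.24 ± 0.12 (p = 0.0526), for Pcdhgc3 -0.31 ± 0.22, for Pcdh19 -0.18 ± 0.13, for Cdh2 -0.08 ± 0.10 and for Pcdh8 -0.05 ± 0.18. The count of 5 members above 0 was 10 without male 5xCHI vehicle replicate 2 and 13 with complete cohorts or limma voom. The count of 0 at an unadjusted p under 0.05 was 2 without the far libraries (210 of all genes). It was 1 with limma voom (437) or the replicate block (87).

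**Figure D4:**
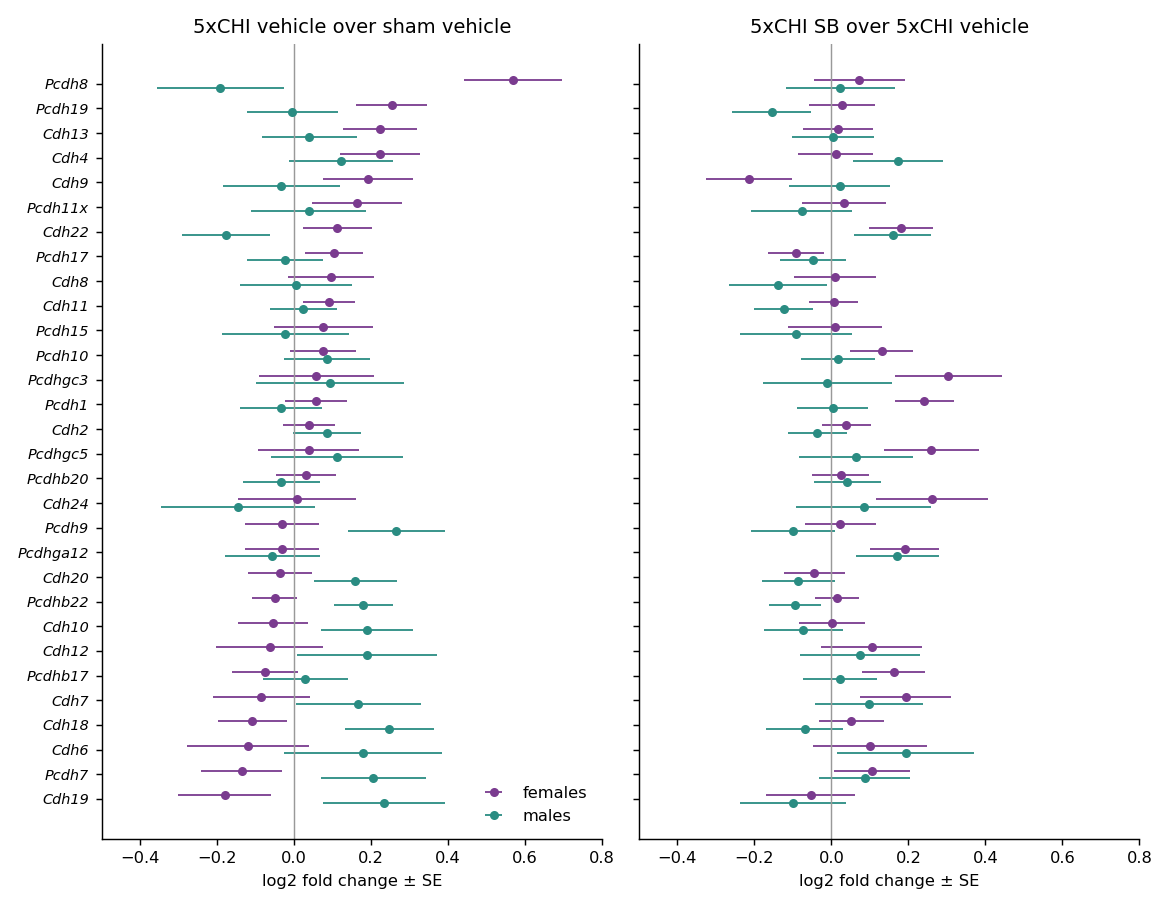
Log2 fold change (points) and SE (bars) of each member by sex, for 5xCHI vehicle over sham vehicle (left) and 5xCHI SB over 5xCHI vehicle (right). Pcdh8 in injured females, at 0.57, is the farthest from 0 of all points.

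Values of marker lists are given for SB too, and their part in the values above was not tested. No marker gene passed adjustment. All 10 myelin genes were lower after SB in injured mice (median -0.36, each with an unadjusted p under 0.05, against 7.06% of all genes). Their summed level was 2525 to 8842 CPM (median 6961) in 5xCHI SB libraries, against 5294 to 12585 CPM (median 7465) in 5xCHI vehicle libraries. In the same order the medians were 6707 and 7223 CPM in females, and 7001 and 7810 CPM in males. These medians differed little beside the ranges. A far library is among the female 5xCHI SB libraries, and marker list values without the far libraries are not given here. All 7 upper layer genes were higher (median 0.15), at 1536 to 2668 CPM in 5xCHI SB libraries against 1606 to 2236 CPM in 5xCHI vehicle libraries. The 3 measured striatal genes were higher (median 0.31), at 91.4 to 696 CPM in 5xCHI SB libraries against 91.1 to 285 CPM in 5xCHI vehicle libraries. All 16 ribosomal protein genes were lower (median -0.07).

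Injured mice given SB were also set against sham vehicle mice, and the sham groups with and without SB against each other. In 5xCHI SB against sham vehicle mice 23 of 30 members were above 0 (50.2% of all genes), 4 had an unadjusted p under 0.05 (12.6% of all genes) and none passed. Cdh4 had 11.3, 19.8 and 27.5 CPM (n = 19) in 5xCHI SB libraries, against 8.86, 15.2 and 27.8 CPM (n = 14) in sham vehicle libraries, a fold change of 0.26 ± 0.086 (p = 0.00339, adjusted p = 0.329 by edgeR). The ranges overlap almost wholly. Pcdh8 was at 0.24 ± 0.11 (p = 0.0297), Pcdhgc5 at 0.24 ± 0.11 (p = 0.0349) and Cdh2 at 0.06 ± 0.056. Without the far libraries Cdh4 was at 0.20 and Pcdhgc5 at 0.09. The count of 4 was 1 without male sham vehicle replicate 4 and 10 without female sham vehicle replicate 5, and it was 1 with no cohort term. This comparison shares its sham vehicle mice with the injury comparison and its 5xCHI SB mice with the SB comparison.

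Sham SB mice numbered 5, and 27 of 30 members were above 0 in them relative to sham vehicle mice (47.1% of all genes), with a median of 0.12. Here 3 members had an unadjusted p under 0.05 (7.02% of all genes) and none passed. Pcdh1 had 217, 298, 300.04, 304 and 362 CPM in the 5 sham SB libraries, against 139, 232 and 302 CPM (lowest, median and highest of 14) in sham vehicle libraries (0.23 ± 0.10, p = 0.0336, adjusted p = 0.677 by edgeR). Pcdh10 had 207, 222, 235, 272 and 294 CPM in sham SB libraries, against 128, 196 and 255 CPM in sham vehicle libraries (0.24 ± 0.11, p = 0.0347). Pcdhgc5 had 81.5, 118, 123, 134 and 168 CPM in sham SB libraries, against 35.8, 85.8 and 153 CPM in sham vehicle libraries (0.34 ± 0.16, p = 0.0416). Sham SB libraries lay mostly in the upper part of the sham vehicle range for these genes. They came from F1, F2, M1 and M2, whereas that range is over all 8 cohorts, so the placement mixes cohort with treatment. Within F1, Pcdhgc5 was at 123 and 168 CPM in sham SB libraries, against 142 and 153 CPM in sham vehicle libraries. It was higher in sham SB in M1 (118 against 55.6 CPM), M2 (134 against 115 CPM) and F2 (81.5 against 37.1 CPM, a far library). Without the far libraries 20 of 30 members were above 0 and none of the 3 had an unadjusted p under 0.05. The count of 3 was also 0 without female sham vehicle replicate 1, male sham SB replicate 2 or male sham vehicle replicate 4, and 5 without female sham SB replicate 2 or male sham vehicle replicate 3 or 5. It was 0 with limma voom and 6 with complete cohorts. Pcdh8 was at 0.21 ± 0.16 and Cdh2 at 0.12 ± 0.086.

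The injury by SB interaction was above 0 for 9 of 30 members (52.2% of all genes), and 0 had an unadjusted p under 0.05 with edgeR or DESeq2, against 1.38% of all genes. Pcdh17 was at -0.19 ± 0.11, Cdh20 at -0.18 ± 0.12, Pcdh19 at -0.18 ± 0.13, Pcdh8 at -0.16 ± 0.18 and Cdh2 at -0.12 ± 0.10. The count of 9 was 5 without female 5xCHI vehicle replicate 2, 5 with the replicate block, 13 without the far libraries and 15 with limma voom. The count of 0 was 1 with complete cohorts (136 of all genes) or limma voom (633).

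Females and males were compared across all groups with limma, the cohort being a random effect, since each cohort is of 1 sex. No member passed, while 0.0104% of all genes did. Fold changes of females over males were above 0 for 7 of 30 members (46.2% of all genes), and 3 had an unadjusted p under 0.05 (7.81% of all genes). Pcdhb22 had 13.2, 16.1 and 21.8 CPM (lowest, median and highest of 35) in females, against 14.7, 18.2 and 23.3 CPM (of 23) in males, and differed by -0.18 ± 0.065 (p = 0.00833, adjusted p = 0.453 by limma). With the 4 cohort means of each sex as the units, the exact permutation p was 0.0571. Cdh24 had 6.28, 11.9 and 22.1 CPM in females, against 5.44, 10.2 and 14.7 CPM in males (0.33 ± 0.16, p = 0.0429; exact permutation p over cohorts 0.114). Pcdh7 had 109, 217 and 327 CPM in females, against 168, 240.45 and 315 CPM in males (-0.26 ± 0.13, p = 0.0494; exact permutation p 0.286). The sexes overlap for all 3. Of the X-linked members, Pcdh11x was at -0.23 ± 0.12 and Pcdh19 at -0.11 ± 0.094. Pcdh8 was at 0.01 ± 0.14 and Cdh2 at -0.08 ± 0.077.

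Cohort accounted for a median of 28.9% of each member's variance, against 24.0% over all genes. The share was largest for Cdh22 at 66.3%, Pcdhga12 at 59.7% and Pcdhgc5 at 57.6%, and smallest for Pcdh8 at 13.1%, Pcdh11x at 13.8% and Cdh11 at 14.2%. Cdh22 and Pcdhga12, the members with the smallest p for SB, were those with the largest shares. A share also depends on the spread within cohorts, which was 0.36 (SD, log2) for Pcdh8 and 0.15 for Cdh11. The cohort was a term of the fits whose p-values are given, unless stated.

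Members varied together within cohorts more often than not. After each gene was centred on its cohort mean, 350 of the 435 member pairs had a positive correlation over the 58 libraries, with a median of 0.28. The highest was that of Pcdhgc5 with Pcdh10 at 0.89, on different chromosomes, and Pcdhgc5 with Pcdhgc3 was at 0.81. Another set joined Pcdh7, Cdh7 and Cdh12 at 0.83 to 0.87. The lowest was that of Cdh24 with Cdh10 at -0.57. All pairs share the libraries and their depth, so these values are a description. The first principal component of all genes held 27.5% of the variance. No count over pairs of other genes is given, so the values are not shown to be particular to the family. Pcdh10 and Pcdh9 had the highest median correlation with the other members, at 0.54 and 0.52, whereas Pcdh8 was at 0.10 and Cdh22 at -0.10. Of the members, Pcdh19 (0.59) and Pcdh1 (0.51) were most like Pcdh8, and Cdh2 was at 0.13. Over all genes of the table the most like Pcdh8 were Wdr6 at 0.77, Fbxo10 at 0.77, Gprin1 at 0.75, Prmt2 at 0.75 and Hap1 at 0.75. The mean of the 6 clustered protocadherins was most like Aff4 at 0.91, Cds2 at 0.91 and Nbea at 0.91.

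Pcdh8 was set against 4 gene lists across libraries, since it is itself known as activity-induced. Centred on the cohort means, it correlated with the mean of 11 other immediate early genes at r = 0.32 and rho = 0.39 over 58 libraries (permutation p = 0.0156 and 0.00302, adjusted over the 4 lists 0.0311 and 0.00604). Without the 2 libraries farthest from the median of the list, r was 0.30. Within the 6 cohorts of at least 6 libraries r was positive throughout, at 0.06 in F2, 0.31 in M3, 0.33 in F3, 0.45 in M1, 0.75 in F1 and 0.94 in M2. With the mean of 10 myelin genes r was -0.49 and rho -0.46 (permutation p = 0.00013 and 0.00029, adjusted 0.00052 and 0.00116), and -0.50 without the 2 farthest libraries. Within cohorts it was -0.79 in F2, -0.69 in M3, -0.49 in M1, -0.41 in F3, -0.06 in M2 and 0.02 in F1, so it did not hold in F1 and M2. Upper layer genes were at r = -0.03 (permutation p = 0.841) and ribosomal protein genes at r = -0.05 (permutation p = 0.699).

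**Figure D5:**
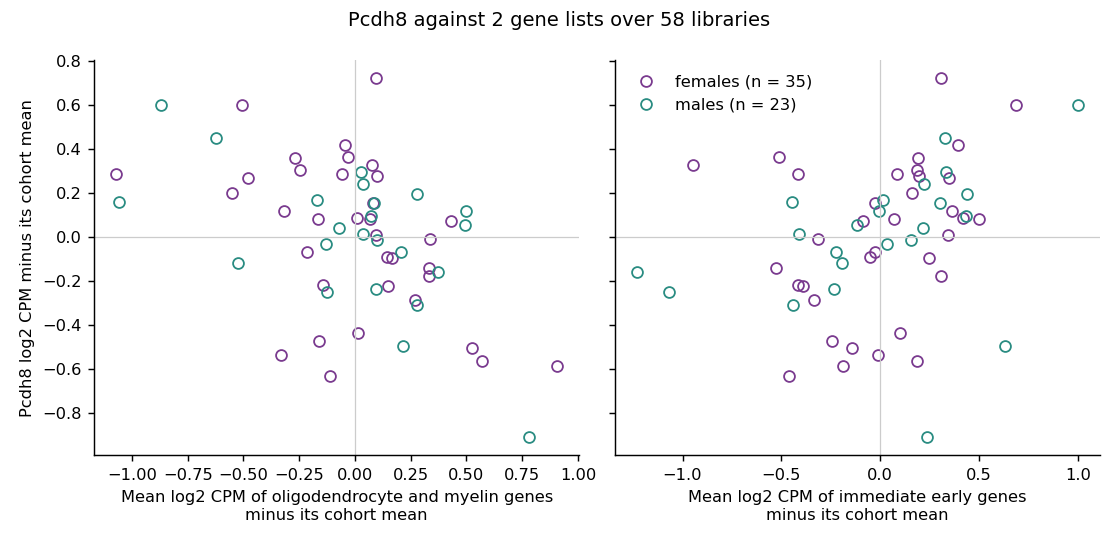
Pcdh8 (log2 CPM minus its cohort mean) against the mean log2 CPM of the myelin genes (left) and of the immediate early genes (right), minus their cohort means, over 58 libraries. The Pearson correlation is -0.49 on the left and 0.32 on the right.

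Genes that work with cadherins were followed by lists. No gene of these lists passed in the injury or SB comparison over both sexes (edgeR, both 0% of all genes). Over all genes 49.4% were above 0 for injury and 52.2% for SB. The list counts below include the far libraries, without which the members above 0 for injury fell from 25 to 10 of 30. The trend with exon length was not taken out of them. Of the 12 catenins and adherens junction genes, 8 were above 0 for injury, led by Ctnna2 at 0.07 ± 0.045 and Ctnnd2 at 0.06 ± 0.044, which encode neuronal catenins, and 8 for SB, with the catenin relatives Pkp4 at -0.15 ± 0.055 (p = 0.00724, adjusted p = 0.655) and Arvcf at 0.11 ± 0.058. All 9 measured atypical cadherins and calsyntenins (of 13) were above 0 for SB, with the giant cadherin Dchs1 at 0.24 ± 0.084 (p = 0.00575, adjusted p = 0.655) and the planar polarity cadherin Celsr2 at 0.15 ± 0.068, and 4 of 9 for injury, with Clstn3 at -0.03 ± 0.043 and Celsr2 at 0.04 ± 0.076. WAVE complex genes, which remodel actin, were above 0 for 8 of 9 after injury (Cyfip1 0.06 ± 0.049, Cyfip2 0.07 ± 0.054) and 7 of 9 after SB (Brk1 -0.05 ± 0.037, Cyfip2 0.06 ± 0.048).

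Kinases and phosphatases of cadherin signalling were above 0 for 11 of 15 after injury, with Src at -0.05 ± 0.045 and Rhoa at -0.04 ± 0.042, and for 8 of 15 after SB, with the tyrosine kinases Src at 0.11 ± 0.040 (p = 0.00948) and Ptk2b at 0.15 ± 0.059 (p = 0.0161). The 7 protease genes, including the gamma-secretase that cuts cadherins, were above 0 for 4 after injury (Psenen -0.11 ± 0.060, Ncstn 0.04 ± 0.037) and 1 after SB (Ncstn 0.04 ± 0.033, Aph1a -0.02 ± 0.043). Of 14 genes for promoter choice in the protocadherin cluster, such as cohesin and its loaders, 11 were above 0 after injury (Stag1 0.05 ± 0.046) and 8 after SB (Smc3 -0.07 ± 0.046, Rad21 -0.06 ± 0.041). On the route from arcadlin to p38 MAPK, 6 of 7 listed genes were measured. After injury 3 of them were above 0, with the p38 kinase genes Mapk11 at -0.12 ± 0.079 and Mapk14 at -0.04 ± 0.034, and after SB 4, with Mapk14 at 0.04 ± 0.031 and Map2k3 at -0.06 ± 0.070.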

How the data were processed

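Bulk RNA-seq counts of 58 somatosensory cortex libraries were used. Per the labels' protocols the authors isolated RNA with Qiagen RNeasy kits and made poly(A)-selected, strand-marking NEBNext Ultra II Directional libraries. Per the submitters' processing notes they used STAR, featureCounts and DESeq2 with GRCm39 (mm39). The sources used here give no versions, no annotation and no strand setting for the counting, so overlapping and antisense genes cannot be told apart. The deposited table holds raw read counts per gene, with no value below 101. Acute samples were not analysed here.

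The counts of all 9636 genes were fitted with edgeR 4.0.16 in R 4.3.3 (TMM, robust quasi-likelihood, 8 sex by condition groups plus cohort within sex, 44 residual degrees of freedom), with Benjamini-Hochberg adjustment over all genes and a threshold of 0.05. An effect over both sexes averages that of females and that of males. Females and males were compared with limma 3.58.1 (voom, cohort as a random effect, correlation 0.193). DESeq2 1.42.0 was an alternative. The low-count filter removed 0 genes. The biological coefficient of variation was 0.123, and every pair of libraries within a group differed beyond sampling noise (chi-square over its degrees of freedom at least 9.83). Nothing says whether libraries of a group were prepared from separate dissections, so p-values measure the spread between these libraries. Levels are counts scaled to library size with TMM factors (CPM), divided by GENCODE M21 exon length where given per kilobase. Promoters are from RefSeq GRCm38.p6, and all coordinates are of that build.

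The members and gene lists were chosen with earlier results of these data known. The text names, for injury and SB over both sexes, the 5 members of smallest p in each direction, and in other comparisons the 3 of smallest p, with Pcdh8 and Cdh2 throughout. It also names the 5 highest and 3 lowest members by level, the 3 largest and smallest cohort shares, the X-linked members for sex, the 2 genes of smallest p per partner list (1 of these is not reported here), and the 5 and 3 genes most like Pcdh8 and the clustered mean. Removal of the 4 far libraries, the length correction and the within-cohort counts were chosen after seeing the data. Alternatives were other scalings, filters and tools, no cohort term, a replicate block, each sex alone, complete cohorts, and leaving out each library.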

Additional observations from a re-analysis of the deposited data

Results flagged for a closer look

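Single libraries stood apart from the rest of their group for 6 of the 96 combinations of named member and group that were examined, where chance alone flags about 1 in 20 groups. These combinations did not cover all 8 groups for the 24 named members, so a group without a flag was not necessarily examined. The flags fell in groups of 8 or 9 libraries. Cdh7 was at 8.619 CPM in female sham vehicle replicate 1, one of the 4 libraries that stood far from the rest, against 23.93 to 33.85 CPM in the other female sham vehicle libraries. Pcdh1 was at 175.8 CPM in male 5xCHI SB replicate 6, against 238.3 to 274.3 CPM in the others of that group. Pcdh17 was high in 1 library of each injured male group, at 110.8 CPM in 5xCHI SB replicate 1 (others 66.14 to 86.13 CPM) and at 112.5 CPM in 5xCHI vehicle replicate 4 (others 69.78 to 86.8 CPM). Pcdh8 was at 15.44 CPM in male 5xCHI vehicle replicate 7, against 24.4 to 32.27 CPM in the others. Pcdhb20 was at 19.68 CPM in female sham vehicle replicate 5, against 11.84 to 15.49 CPM in the others.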

How the results depend on the processing

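No member passed an adjusted p of 0.05 under any setting run, and the fold change of Pcdh8 in injured females lay between 0.50 and 0.61 when single libraries were left out (adjusted p 0.0933 to 0.9999 by edgeR). The replicate numbers mark no shared origin in the labels, and same-numbered libraries did not vary together (mean correlation -0.026 over 62 pairs, -0.596 to 0.588; 3 libraries correlated best with their own number). With the replicate block added, Pcdh8 in injured females was at 0.46 (p = 0.000428 by edgeR) and members with an unadjusted p under 0.05 numbered 3 for injury in females, 1 in males, 4 for SB in females and 1 for SB in sham mice. With limma voom these counts were 7 for injury in females and 7 for its difference between the sexes, and with males fitted alone 6 for injury in males (1 with complete cohorts or no cohort term). With no cohort term they were 2 for the difference between the sexes and 5 for SB in sham mice. Left uncentred, the correlation of Pcdh8 with the immediate early genes was 0.177, and centred on cohort by condition 0.439. Some values near 0 changed sign, and the cause was not tested. With complete cohorts these were Cdh24 (0.1037), Cdh22 (0.129) and Pcdhb20 (0.01805) for injury over both sexes, Pcdh17 (0.02857), Cdh9 (0.02833) and Pcdh8 (-0.07082) for SB over both sexes, and Pcdh8 for SB in females (-0.04492) and males (-0.09673). Without the 4 far libraries they were Cdh22 (0.004625) and Cdh2 (-0.01225) for injury over both sexes, Cdh2 for injury in females (-0.05566), and Cdh2 in 5xCHI SB against sham vehicle mice (-0.005337). With limma voom they were Cdh2 for injury in females (-0.0009469), Pcdh8 (-0.000978) and Cdh2 (-0.005546) for SB over both sexes, Cdh2 for SB in females (-0.009992), Pcdh8 for SB in males (-0.04613) and Cdh2 in the SB effect in males minus females (0.008892). Cdh2 for SB over both sexes was -0.0008415 with DESeq2 size factors, -0.0008347 with DESeq2, -0.004169 with a mean count of at least 1000 and -0.003043 with the replicate block. With single libraries left out, values that crossed 0 for injury over both sexes were Pcdhga12 (-0.083 to 0.0011), Cdh24 (-0.13 to 0.029), Cdh22 (-0.099 to 0.017), Pcdhb17 (-0.056 to 0.0032) and Pcdhb20 (-0.020 to 0.031). Elsewhere they were Cdh2 for injury in females (-0.027 to 0.072) and in males minus females (-0.0088 to 0.11), Pcdh8 (-0.0070 to 0.084) and Cdh2 (-0.017 to 0.017) for SB over both sexes, and Pcdh8 for SB in males (-0.086 to 0.069). The smallest member count was 201 in a table without low values, so genes of lower counts are not covered. The number of sham SB libraries (5) and the single sham vehicle library in several cohorts limit the comparisons that use them.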
